A study of Mus musculus with 9 samples.

Results

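The 38 genes described here belong to the contractile, calcium-handling and regulator programme of heart muscle. They were taken as the array features whose gene symbol, or an older alias of it, is 1 of 38 named genes, and all 38 had at least 1 probe among the 24291 genes measured. They have 80 probes in all, 14 genes having 1 probe and 24 having several, up to 6. The arrays come from mesenchymal cells sorted from fetal mouse lung, in a study of how smooth muscle of the airways differentiates. SMC cells (high for the smooth muscle actin Acta2 and low for the growth factor receptor PDGFRA) are labelled as smooth muscle of airways and vessels. MYF cells (PDGFRA-high, Acta2-low) are labelled as progenitors of alveolar myofibroblasts, and INM cells (low for both) as undifferentiated progenitors of either type. All 3 groups were RFP-positive, came from fetuses whose mothers were given tamoxifen at 0.1 mg per g body weight on embryonic day E15.5, and were taken at E18.5. Each group has 3 arrays, from 3 mice each per the design. The gene that drives the RFP label, the Cre and the mouse strain are not given in the sources used here, nor is the gating for cells of other tissues.

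Heart muscle contracts when calcium, let out of the sarcoplasmic reticulum by Ryr2, binds troponin on the thin filament and frees it for myosin of the thick filament. Z discs hold the thin filaments and M bands the thick ones, and titin spans the distance between them. In mice, heart muscle is not restricted to the heart: a sleeve of atrial-type muscle, which needs Nkx2-5 to form, surrounds the pulmonary veins and reaches into the lung. Atrial and ventricular muscle use different light chains, Myl4 and Myl7 in atria and Myl3 and Myl2 in ventricles.

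Values are log2 signals, and the median gene stood at 5.97. Over all features, SMC replicate 1 had Pearson correlations of 0.425 to 0.451 with the other 8 arrays, against 0.864 to 0.970 among those 8. The other SMC arrays correlated at 0.903 with each other. SMC replicate 1 was therefore left out of the comparisons below unless all 9 arrays are named, and its own values stand in brackets where single arrays or list means are given. No background values were used, so signals near the bottom of the scale, and folds against them, are not exact. Of the genes of the sort, Acta2 read 15.88 and 14.79 in SMC replicates 2 and 3 (14.77 in replicate 1), 14.06, 13.87 and 13.97 in MYF and 13.43, 13.44 and 13.84 in INM, bright on every array and highest in SMC. Pdgfra read 6.93 and 6.89 in SMC replicates 2 and 3 (1.98 in replicate 1), 13.63, 13.04 and 13.87 in MYF and 8.66, 8.46 and 8.30 in INM, so that MYF was highest, INM intermediate and SMC lowest. Changes were tested with limma over all genes and called at a Benjamini-Hochberg adjusted p under 0.05. Nothing in the labels says that same-numbered samples share an animal, and the p-values measure the spread between these samples. All groups share 1 estimate of spread per gene, so SMC, with 2 arrays, is assumed to vary like MYF and INM. The SD of the SMC arrays was larger than in MYF and INM for most of these genes, such as Mybpc3. It was not for all, such as Myl2.

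Promoter sequences of 4 of these genes are shown first because 3 of them, for light chains and heart actin, carry a CArG box. The fourth is that of Smpx, the only gene here called higher in MYF than in INM. The windows are the 250 bases before the transcription start in RefSeq, build GRCm38.p6, printed 5′ to 3′ along the gene's strand. Capitals mark the motif matches named after them.
Myl7 promoter (chr11:5898783-5899032, minus strand): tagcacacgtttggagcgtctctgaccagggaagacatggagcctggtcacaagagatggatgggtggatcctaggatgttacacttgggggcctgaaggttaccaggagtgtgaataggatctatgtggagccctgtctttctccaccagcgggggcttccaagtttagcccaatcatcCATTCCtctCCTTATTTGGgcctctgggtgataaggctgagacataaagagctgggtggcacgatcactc
Myl3 promoter (chr9:110763428-110763677, plus strand): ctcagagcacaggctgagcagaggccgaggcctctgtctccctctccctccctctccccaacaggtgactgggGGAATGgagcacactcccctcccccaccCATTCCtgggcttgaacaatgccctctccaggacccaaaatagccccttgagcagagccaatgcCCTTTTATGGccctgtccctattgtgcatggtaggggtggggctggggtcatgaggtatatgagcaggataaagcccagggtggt
Actc1 promoter (chr2:114052876-114053125, minus strand): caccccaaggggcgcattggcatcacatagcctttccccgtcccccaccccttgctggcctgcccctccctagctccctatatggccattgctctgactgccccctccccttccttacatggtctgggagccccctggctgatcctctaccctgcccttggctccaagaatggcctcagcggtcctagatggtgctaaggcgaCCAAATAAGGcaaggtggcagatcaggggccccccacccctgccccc
Smpx promoter (chrX:157698723-157698972, plus strand): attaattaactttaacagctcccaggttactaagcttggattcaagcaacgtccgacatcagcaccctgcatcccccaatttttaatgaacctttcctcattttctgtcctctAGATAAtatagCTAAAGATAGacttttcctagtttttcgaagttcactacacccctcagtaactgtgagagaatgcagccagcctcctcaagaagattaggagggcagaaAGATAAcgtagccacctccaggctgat

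Myl7 holds a CATTCC (the MCAT motif of TEAD factors) at -70 to -65 and a CArG box at -61 to -52, counted back from the base before the start. Myl3 holds CATTCC at -149 to -144, its reverse complement at -177 to -172, and a CArG box at -85 to -76, and Actc1 a CArG box at -47 to -38. A CArG box, the site of serum response factor, is a run of 6 A or T bases between CC and GG. Smpx holds the GATA motif (AGATAA) at -137 to -132 and at -27 to -22. It also holds a match to CTANNNNTAG at -126 to -117. That string is looser than the MEF2 motif, which takes only A or T between CTA and TAG. The Smpx match has a G there. No matches overlap in these 4 windows.

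RefSeq promoters were matched for 33 of the 38 genes, and searched on both strands over every listed start, as for all 27025 genes with a promoter entry. CArG boxes were found in 6 of 33 (18.2%), against 1.62% of all genes: Actc1, Ldb3, Myl3, Myl7, Myom1 and Nebl. Matches to CTANNNNTAG were found in 5 of 33 (15.2%), against 3.7% of all genes, and matches to AGATAA in 9 of 33 (27.3%), against 11.4% of all genes. Matches to CATTCC were found in 8 of 33 (24.2%), against 14.4% of all genes. TNAAGTG, the motif of NKX2 factors, was found in 3 of 33 (9.09%), against 11.4% of all genes. AGGTGT, a T-box motif, was found in 6 of 33 (18.2%), against 13.6% of all genes, and TATAAA, the TATA box, in 5 of 33 (15.2%), against 14.3% of all genes. These matches describe the sequence alone, and no binding was measured.

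SMC cells carried far more RNA signal of the heart sarcomere than MYF cells. Of the 38 genes, 24 rose in SMC and 0 fell, against 4.66% of all genes called higher and 3.54% called lower. The limma test gave 28 genes higher and 0 lower at an unadjusted p under 0.05, against 12.7% and 13.6% of all genes. The median difference over the 38 genes was 5.00, and over all genes -0.05. In 28 of the 38, both SMC arrays were above every MYF array, as in 17.9% of all genes. Rises covered 7 of 7 thick filament genes, 4 of 4 thin filament genes, 8 of 11 of the Z disc, M band and scaffold, 2 of 7 of calcium and membrane, 2 of 4 transcription factors and 1 of 2 of fuel supply, and 0 of 3 for the natriuretic peptides and their protease. With all 9 arrays, 6 of the 38 genes were called higher (Myl3, Myl4, Tnnc1, Csrp3, Ttn and Nkx2-5), against 0.379% of all genes, and the median difference was 3.53. Leaving out each of the 8 arrays in turn, 20 of the 24 genes kept their call every time, and Mybpc3, Ldb3, Ryr2 and Hand2 lost it at least once. In such bulk samples, fewer cells of a type and less RNA per cell cannot be told apart.

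**Figure D1:**
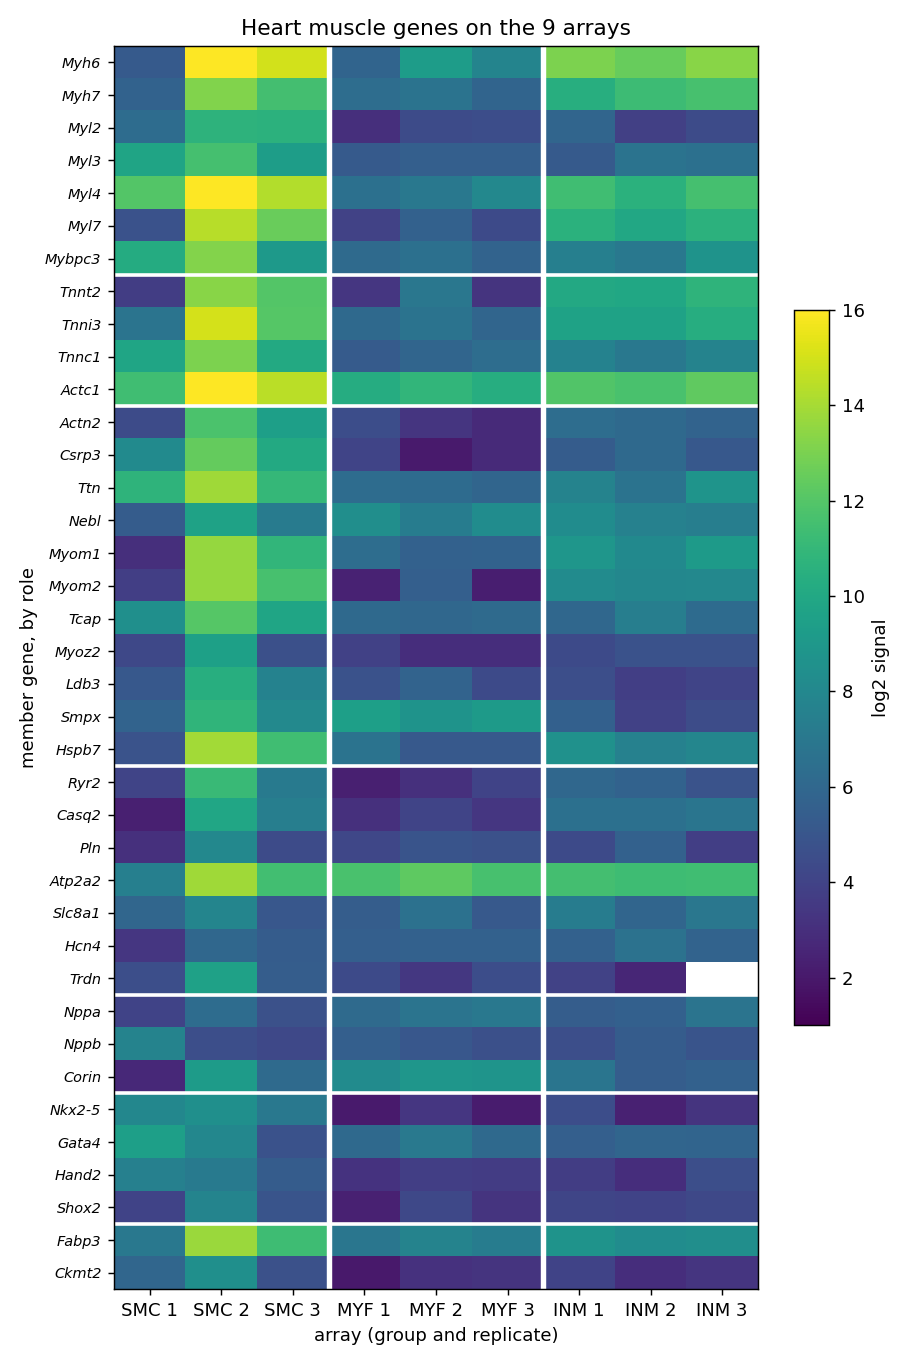
Log2 signal (colour) of each of the 38 heart muscle genes (rows, grouped by role from thick filament at the top to fuel supply at the bottom) on each of the 9 arrays (columns, SMC then MYF then INM). Most rows are brightest in SMC replicates 2 and 3, intermediate in INM and dark in MYF, while SMC replicate 1 differs from both other SMC arrays.

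The SMC arrays were unequal. Replicate 2 was above replicate 3 for all 38 genes, against 50.5% of all genes, with a median gap of 2.44 over the 38 and 0.01 over all genes. Replicate 1 was below both of them for 30 of the 38, against 41.7% of all genes. It was above every MYF array for 18 of the 38, against 46.4% of all genes. The mean signal over the 38 genes was 11.16 and 8.75 in SMC replicates 2 and 3 (6.23 in replicate 1), 5.38 to 5.91 in MYF and 6.78 to 7.20 in INM.

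Thick filament genes rose in SMC without exception, by 4.99 to 8.82 against MYF. Myl7, the regulatory light chain of atrial muscle, whose promoter is printed above, read 14.36 and 12.57 in SMC replicates 2 and 3 (4.77 in replicate 1), 3.96, 5.64 and 4.34 in MYF and 10.55, 10.02 and 10.62 in INM. Both SMC arrays were highest, all INM arrays were in between and all MYF arrays were low. The SMC signal was 8.82 ± 0.64 (SE) above MYF (adjusted p = 0.000916), and with all 9 arrays 5.92 (adjusted p = 0.254). Myl4, the essential light chain of atria and of the fetal heart, read 16.00 and 14.25 in SMC replicates 2 and 3 (11.96 in replicate 1), 6.54, 7.01 and 8.02 in MYF and 11.42, 10.59 and 11.57 in INM. SMC was again above INM and INM above MYF with no overlap, and replicate 2 lay at the top of the scale, where signals may be compressed. The difference between SMC and MYF was 7.94 ± 0.63 (adjusted p = 0.00123), and 6.88 with all 9 arrays (adjusted p = 0.0277).

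Both heavy chains followed that order in their means. Myh6, the alpha heavy chain used in atria, read 15.99 and 14.96 in SMC replicates 2 and 3 (5.25 in replicate 1), 5.85, 9.28 and 7.75 in MYF and 13.03, 12.53 and 13.33 in INM. All 3 INM arrays were far above MYF, SMC replicates 2 and 3 were higher still, and replicate 1 was below every MYF array. SMC exceeded MYF by 7.85 ± 0.88 (adjusted p = 0.00321), and by 4.44 with all 9 arrays (adjusted p = 0.408). Myh7, the beta heavy chain of the fetal ventricle, read 13.17 and 11.52 in SMC replicates 2 and 3 (5.72 in replicate 1), 6.37, 6.73 and 5.83 in MYF and 10.41, 11.26 and 11.64 in INM. Here the SMC and INM arrays overlapped, and both groups were above MYF. Its difference from MYF was 6.03 ± 0.58 in SMC (adjusted p = 0.0021), and 3.83 with all 9 arrays (adjusted p = 0.321). These heavy chain genes are neighbours on chromosome 14 and close paralogs, and whether a probe of 1 also caught RNA of the other was not tested.

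The ventricular light chains were low in INM as well as in MYF. Myl2, the ventricular regulatory chain, read 10.68 and 10.61 in SMC replicates 2 and 3 (6.32 in replicate 1), 3.03, 4.42 and 4.55 in MYF and 5.89, 3.83 and 4.43 in INM. SMC replicates 2 and 3 were high, replicate 1 was just above the highest INM array, and MYF and INM overlapped. It rose in SMC by 6.65 ± 0.67 against MYF (adjusted p = 0.00235), and by 5.21 with all 9 arrays (adjusted p = 0.0985). Myl3, the ventricular essential chain, read 11.56 and 9.35 in SMC replicates 2 and 3 (9.76 in replicate 1), 5.27, 5.53 and 5.55 in MYF and 5.25, 6.70 and 6.53 in INM. All 3 SMC arrays, replicate 1 included, were above the overlapping MYF and INM arrays. The difference of SMC from MYF was 5.01 ± 0.67 (adjusted p = 0.00573), and 4.78 with all 9 arrays (adjusted p = 0.0302). Mybpc3, the myosin-binding protein that braces the thick filament, averaged 11.16 ± 2.88 in SMC (SD, n = 2), 6.17 ± 0.37 in MYF and 7.72 ± 0.88 in INM (SD, n = 3 each), and its SMC arrays were the furthest apart of the 7 genes. It rose against MYF by 4.99 ± 1.06 (adjusted p = 0.0289), and by 4.68 with all 9 arrays (adjusted p = 0.0792).

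All 4 thin filament genes rose in SMC. Tnnt2, the troponin that ties the complex to tropomyosin, read 13.31 and 11.98 in SMC replicates 2 and 3 (3.71 in replicate 1), 3.36, 6.92 and 3.24 in MYF and 10.05, 9.91 and 10.75 in INM. MYF replicate 2 stood apart from the other MYF arrays but stayed below every INM array, and SMC replicates 2 and 3 were highest. The SMC signal exceeded MYF by 8.14 ± 1.05 (adjusted p = 0.00495), and with all 9 arrays by 5.16 (adjusted p = 0.328). Tnni3, the inhibitory troponin of mature heart muscle, read 15.01 and 12.04 in SMC replicates 2 and 3 (6.80 in replicate 1), 6.11, 6.73 and 5.89 in MYF and 9.63, 9.63 and 10.37 in INM. SMC, INM and MYF did not overlap once replicate 1 was left out. Tnni3 rose in SMC by 7.28 ± 0.78 (adjusted p = 0.00268), and by 5.04 with all 9 arrays (adjusted p = 0.239).

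Tnnc1, the calcium sensor of heart and slow skeletal muscle, averaged 11.57 ± 2.08 in SMC, 5.85 ± 0.54 in MYF and 7.45 ± 0.40 in INM. Its rise in SMC over MYF was 5.72 ± 0.78 (adjusted p = 0.00605), and 5.14 with all 9 arrays (adjusted p = 0.0385). Actc1, the sarcomeric actin of the heart, whose promoter is also shown, averaged 15.23 ± 1.09 in SMC, 10.49 ± 0.33 in MYF and 12.00 ± 0.34 in INM. It was bright in every group, and every SMC array except replicate 1 was above every INM array. The difference of SMC from MYF was 4.74 ± 0.48 (adjusted p = 0.00245), and 3.47 with all 9 arrays (adjusted p = 0.178). Actins are nearly identical in sequence, and whether its probe also caught RNA of Acta2 was not tested.

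**Figure D2:**
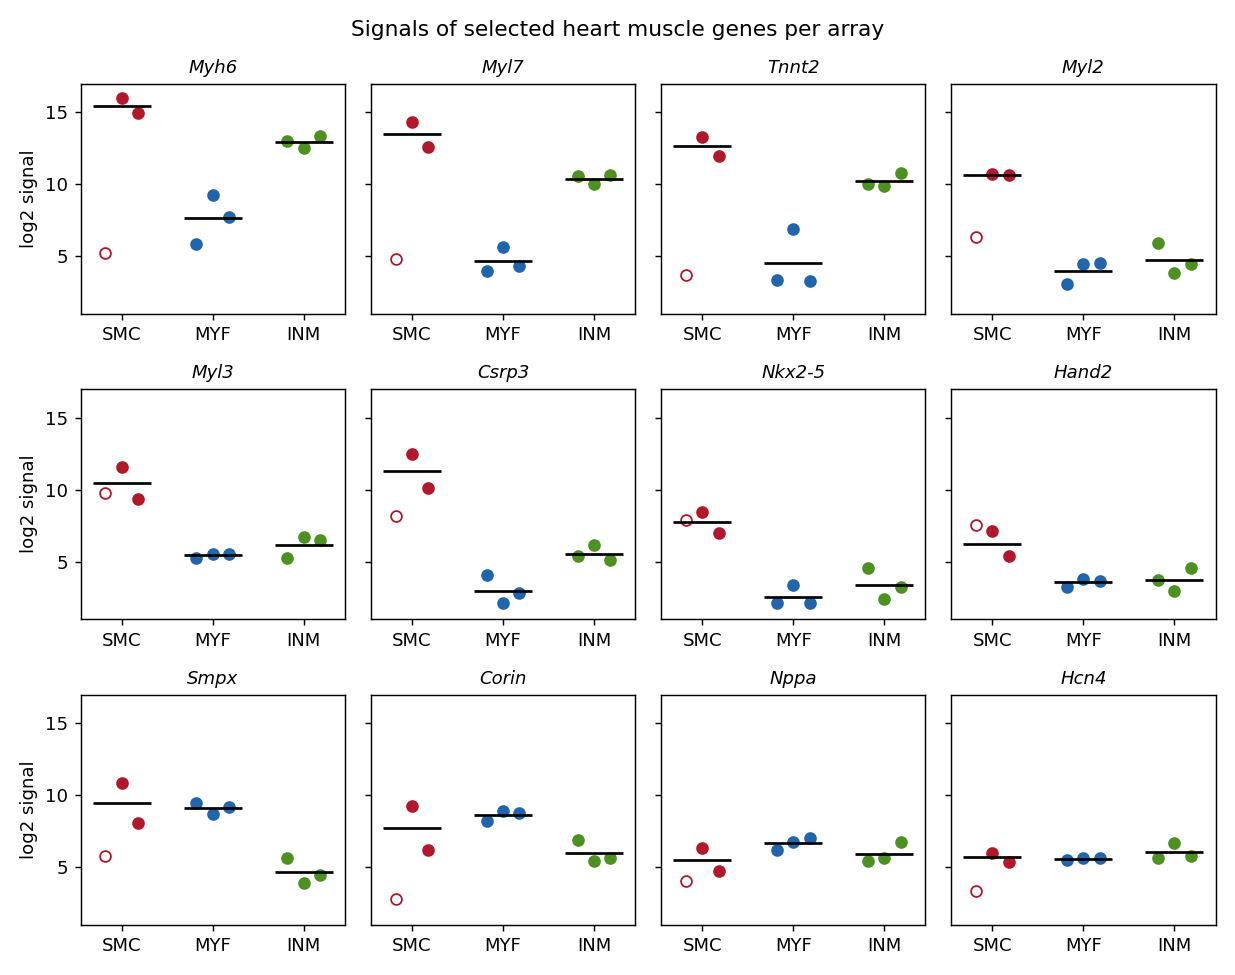
Log2 signal of 12 of the genes, 1 panel each, in SMC, MYF and INM (points are arrays, the open circle is SMC replicate 1, lines are means without it). Myl7 averages 13.47 in SMC, 4.65 in MYF and 10.40 in INM, Myl2 is highest in SMC replicates 2 and 3, and Smpx is high in SMC and MYF and low in INM.

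Of 11 genes of the Z disc, M band and scaffold, 8 rose in SMC against MYF. Myom2, a myomesin that links myosin filaments at the M band, read 13.61 and 11.62 in SMC replicates 2 and 3 (3.75 in replicate 1), 2.46, 5.53 and 2.25 in MYF and 8.24, 7.95 and 7.98 in INM. SMC replicates 2 and 3 were highest, INM arrays lay close together in the middle, and MYF arrays were low. SMC was above MYF by 9.20 ± 0.99 (adjusted p = 0.00272), and by 6.25 with all 9 arrays (adjusted p = 0.259). Csrp3, the muscle LIM protein of the Z disc, read 12.48 and 10.14 in SMC replicates 2 and 3 (8.17 in replicate 1), 4.06, 2.11 and 2.81 in MYF and 5.36, 6.15 and 5.11 in INM. Each of its 3 SMC arrays was above every array of the other groups. Its difference was 8.32 ± 0.78 (adjusted p = 0.00208), and 7.27 with all 9 arrays (adjusted p = 0.0302). Actn2, which crosslinks thin filaments at the Z disc, read 11.76 and 9.48 in SMC replicates 2 and 3 (4.40 in replicate 1), 4.52, 3.30 and 2.81 in MYF and 6.33, 6.11 and 5.80 in INM. SMC replicates 2 and 3 and INM did not overlap each other or MYF, and SMC was above MYF by 7.07 ± 0.71 (adjusted p = 0.00237), or 5.00 with all 9 arrays (adjusted p = 0.206).

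Hspb7, a small heat shock protein of heart muscle, read 13.92 and 11.40 in SMC replicates 2 and 3 (4.84 in replicate 1), 6.73, 5.18 and 5.16 in MYF and 8.57, 7.61 and 7.86 in INM. All INM arrays were above all MYF arrays, and SMC replicates 2 and 3 were above both. Hspb7 rose in SMC over MYF by 6.97 ± 0.78 (adjusted p = 0.0033), and by 4.36 with all 9 arrays (adjusted p = 0.332). Ttn, the giant spring protein titin, averaged 12.41 ± 2.02 in SMC, 6.14 ± 0.24 in MYF and 7.73 ± 1.01 in INM, a rise of 6.28 ± 0.84 (adjusted p = 0.00573) in SMC over MYF, or 5.73 with all 9 arrays (adjusted p = 0.0328). Myom1, the other myomesin, averaged 12.26 ± 1.95 in SMC, 5.93 ± 0.40 in MYF and 8.75 ± 0.55 in INM. Its difference was 6.33 ± 0.75 (adjusted p = 0.00397), and Tcap, which caps titin at the Z disc, and Ldb3, a PDZ-LIM protein there, rose by 4.83 ± 0.67 (adjusted p = 0.00629) and 4.02 ± 0.78 (adjusted p = 0.0217). When SMC replicate 1 was kept, these 3 genes differed by 3.24, 4.00 and 2.73, with adjusted p of 0.469, 0.0868 and 0.322.

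The remaining Z disc genes were Myoz2, which tethers calcineurin, Nebl, a nebulin relative, and Smpx, a small protein of striated muscle linked to focal contacts. Myoz2 differed by 3.81 ± 1.17 (adjusted p = 0.0866), with 9.54 and 4.68 in SMC replicates 2 and 3 (4.26 in replicate 1). Nebl averaged 8.44 ± 1.74 in SMC, 7.98 ± 0.62 in MYF and 7.77 ± 0.46 in INM on its brightest probe, and SMC and MYF overlapped (0.46 ± 0.71, adjusted p = 0.726). Smpx read 10.84 and 8.04 in SMC replicates 2 and 3 (5.75 in replicate 1), 9.46, 8.70 and 9.19 in MYF and 5.61, 3.92 and 4.46 in INM. MYF arrays lay between the SMC arrays, all INM arrays were low, and SMC replicate 1 was near INM. SMC and MYF differed by 0.33 ± 0.81 (adjusted p = 0.838).

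On the brightest probe of each gene, calcium and membrane genes were divided. Other probes of Atp2a2, Trdn and Slc8a1 were called higher in SMC than in MYF, as given below. Ryr2, the calcium release channel, averaged 9.18 ± 2.79 in SMC, 3.15 ± 0.84 in MYF and 5.52 ± 0.63 in INM, a rise of 6.03 ± 1.05 over MYF (adjusted p = 0.0142). Casq2, which stores calcium beside that channel, averaged 8.67 ± 1.73 in SMC, 3.51 ± 0.51 in MYF and 6.64 ± 0.18 in INM, a rise of 5.15 ± 0.66 (adjusted p = 0.00487). Over all 9 arrays these differences were 4.32 (adjusted p = 0.253) and 3.04 (adjusted p = 0.387). Trdn, which anchors calsequestrin, differed by 3.39 ± 1.14 (adjusted p = 0.121), and its value was empty on INM replicate 3. Another 4 genes did not pass: Atp2a2, the pump that refills the reticulum, differed by 0.79 ± 0.63 (adjusted p = 0.466), and its regulator Pln by 1.60 ± 0.98 (adjusted p = 0.343). Slc8a1, the sodium-calcium exchanger, differed by 0.72 ± 0.83 (adjusted p = 0.624) and Hcn4, the pacemaker channel, by 0.08 ± 0.38 (adjusted p = 0.916). Atp2a2 was bright in every group, at 12.65 ± 1.69 in SMC, 11.86 ± 0.36 in MYF and 11.43 ± 0.10 in INM.

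The genes of the natriuretic peptides, hormones that heart muscle secretes, and of their protease did not pass, and SMC means were below MYF means for all 3. Nppa, the atrial peptide and a marker of working atrial muscle, read 6.30 and 4.70 in SMC replicates 2 and 3 (4.05 in replicate 1), 6.20, 6.76 and 7.00 in MYF and 5.44, 5.63 and 6.75 in INM. All groups overlapped, and SMC differed from MYF by -1.15 ± 0.58 (adjusted p = 0.25) and from INM by -0.44 ± 0.58 (adjusted p = 0.799). Nppb, its neighbour on chromosome 4, read 4.62 and 4.25 in SMC replicates 2 and 3 (7.69 in replicate 1), 5.55, 5.05 and 4.64 in MYF and 4.63, 5.39 and 4.92 in INM. SMC replicates 2 and 3 were just below every array of the other groups and replicate 1 was above them all, with a difference from MYF of -0.64 ± 0.38 (adjusted p = 0.334). Corin, the protease that activates the atrial peptide, averaged 7.70 ± 2.15 in SMC, 8.62 ± 0.36 in MYF and 5.97 ± 0.77 in INM, and SMC differed from MYF by -0.91 ± 0.83 (adjusted p = 0.532). All 3 MYF arrays of Corin were above all 3 INM arrays, by 2.65 ± 0.75 (adjusted p = 0.062). Without SMC replicate 2, which leaves 1 SMC array assumed to vary like the other groups, Corin was called lower in SMC than in MYF (-2.43, adjusted p = 0.0349).

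Among transcription factors, Nkx2-5, the homeobox factor required for pulmonary vein muscle in mice, read 8.46 and 7.02 in SMC replicates 2 and 3 (7.92 in replicate 1), 2.11, 3.38 and 2.15 in MYF and 4.56, 2.40 and 3.23 in INM. All 3 SMC arrays were high, and MYF and INM arrays were low and overlapped. Nkx2-5 rose in SMC over MYF by 5.19 ± 0.73 (adjusted p = 0.00664), and by 5.25 with all 9 arrays (adjusted p = 0.0263). Hand2, a bHLH factor of heart and limb, read 7.10 and 5.39 in SMC replicates 2 and 3 (7.52 in replicate 1), 3.22, 3.78 and 3.66 in MYF and 3.73, 2.93 and 4.57 in INM. The SMC arrays were above every other array, and the rise over MYF was 2.70 ± 0.61 (adjusted p = 0.0367), or 3.12 with all 9 arrays (adjusted p = 0.0884). This call was lost without SMC replicate 2, without any of the 3 MYF arrays and without INM replicate 1.

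Shox2, a factor of the sinus node and of pulmonary vein muscle, read 7.79 and 4.91 in SMC replicates 2 and 3 (4.00 in replicate 1), 2.35, 4.27 and 3.23 in MYF and 4.15, 4.02 and 4.28 in INM. SMC replicates 2 and 3 were above both other groups but replicate 1 was among them, and the difference from MYF was 3.06 ± 0.83 (adjusted p = 0.0628). Gata4, a zinc-finger factor of heart and other mesoderm, read 7.96 and 4.80 in SMC replicates 2 and 3 (9.45 in replicate 1), 6.10, 7.08 and 6.12 in MYF and 5.51, 5.88 and 5.82 in INM on its brightest probe. The SMC arrays lay on either side of MYF and INM, with a difference from MYF of -0.05 ± 0.81 (adjusted p = 0.978). Its other probe differed by 4.01 ± 1.11 (adjusted p = 0.0719), so the probes of Gata4 gave different values and neither was called. The brightest probe was chosen by its mean over all 9 arrays, SMC replicate 1 included. Fabp3, which carries fatty acids in heart muscle, averaged 12.54 ± 1.73 in SMC, 7.31 ± 0.41 in MYF and 8.46 ± 0.21 in INM and rose over MYF by 5.23 ± 0.65 (adjusted p = 0.00439; 3.39 with all 9 arrays, adjusted p = 0.317). Ckmt2, the mitochondrial creatine kinase of striated muscle, differed by 3.81 ± 0.97 (adjusted p = 0.0515).

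Probe by probe, 45 of the 80 probes of these genes were called higher in SMC than in MYF, against 3.61% of all probes with a gene. Of the 42 probes that were not the brightest of their gene, 21 were called higher and 0 lower by limma. Some of them passed where the brightest probe had not. Atp2a2 had other probes that were higher by 3.13 ± 0.62 (adjusted p = 0.0253) and 4.55 ± 0.84 (adjusted p = 0.0201). Trdn had one higher by 6.18 ± 0.89 (adjusted p = 0.00847), and Slc8a1 one by 3.73 ± 0.85 (adjusted p = 0.04). The probes of Nebl differed by -1.40 to 3.17, and 1 of its 6 was called. Whether the probes read different transcripts was not tested. SMC replicate 1 was left out of these probe fits, which were not repeated with it.

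MYF cells had less of this signal than INM cells for part of the genes. In MYF, 10 of the 38 fell against INM (Myh6, Myh7, Myl4, Myl7, Tnnt2, Tnni3, Actn2, Myom1, Myom2 and Casq2) and 1, Smpx, rose. Over all genes, 6.36% were called lower and 4.35% higher. The median difference was -1.06 over the 38 genes and 0.05 over all genes. Every MYF array was below every INM array in 20 of 37 genes with a full set of values, against 16.5% of all genes. Every MYF array was above every INM array in 4 of the 37 (Smpx, Atp2a2, Corin and Gata4), against 18.6%. Over all 9 arrays, 0 of the 38 were called either way by limma, against 0.927% of all genes lower and 0.173% higher. At an unadjusted p under 0.05, 5 were then lower and 1 higher, against 6.31% and 3.34% of all genes. SMC replicate 1 is in neither group, so every difference stayed the same. Only the estimate of spread, which all groups share, changed: the SE of Myl7 went from 0.58 to 2.06. With the compared groups alone, 17 of the 38 were lower and 2 higher, against 2050 lower and 1584 higher over all genes.

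The largest falls in MYF were those of Myl7 (-5.75 ± 0.58, adjusted p = 0.00112), Tnnt2 (-5.73 ± 0.94, adjusted p = 0.00829) and Myh6 (-5.34 ± 0.78, adjusted p = 0.00519). Myh7 (-4.79 ± 0.52, adjusted p = 0.00146), Myom2 (-4.65 ± 0.88, adjusted p = 0.0154) and Myl4 (-4.01 ± 0.57, adjusted p = 0.00439) followed. Tnni3 fell by 3.63 ± 0.69 (adjusted p = 0.0157), Casq2 by 3.13 ± 0.59 (adjusted p = 0.0151), Myom1 by 2.82 ± 0.67 (adjusted p = 0.0351) and Actn2 by 2.54 ± 0.64 (adjusted p = 0.0425). The atrial light chains were among these genes, and the ventricular light chains were not called: Myl2 differed by -0.72 ± 0.60 (adjusted p = 0.528) and Myl3 by -0.71 ± 0.60 (adjusted p = 0.538). Nkx2-5 differed by -0.85 ± 0.65 (adjusted p = 0.488), with both groups low. Leaving out each of the 8 arrays in turn, Myh6, Myh7, Myl4, Myl7 and Tnnt2 kept their call every time, and the other 5 lost it when any INM array, MYF replicate 1 or MYF replicate 3 was left out. Actn2 and Myom1 also lost it without MYF replicate 2.

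Smpx ran the other way. It was 4.45 ± 0.73 higher in MYF than in INM, a 21.9-fold difference (adjusted p = 0.00806), and kept its call when any 1 of the 8 arrays was left out. At the level of probes, 3 of 80 were called higher in MYF, all of Smpx, against 3.32% of all probes, and 12 lower, against 4.87%. The other 2 called probes of Smpx differed by 4.40 ± 0.61 (adjusted p = 0.00465) and 3.57 ± 0.78 (adjusted p = 0.0302), and its dimmest probe by 0.19 ± 0.91 (adjusted p = 0.938). With all 9 arrays the difference of Smpx was still 4.45, and its adjusted p by limma was 0.125.

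**Figure D3:**
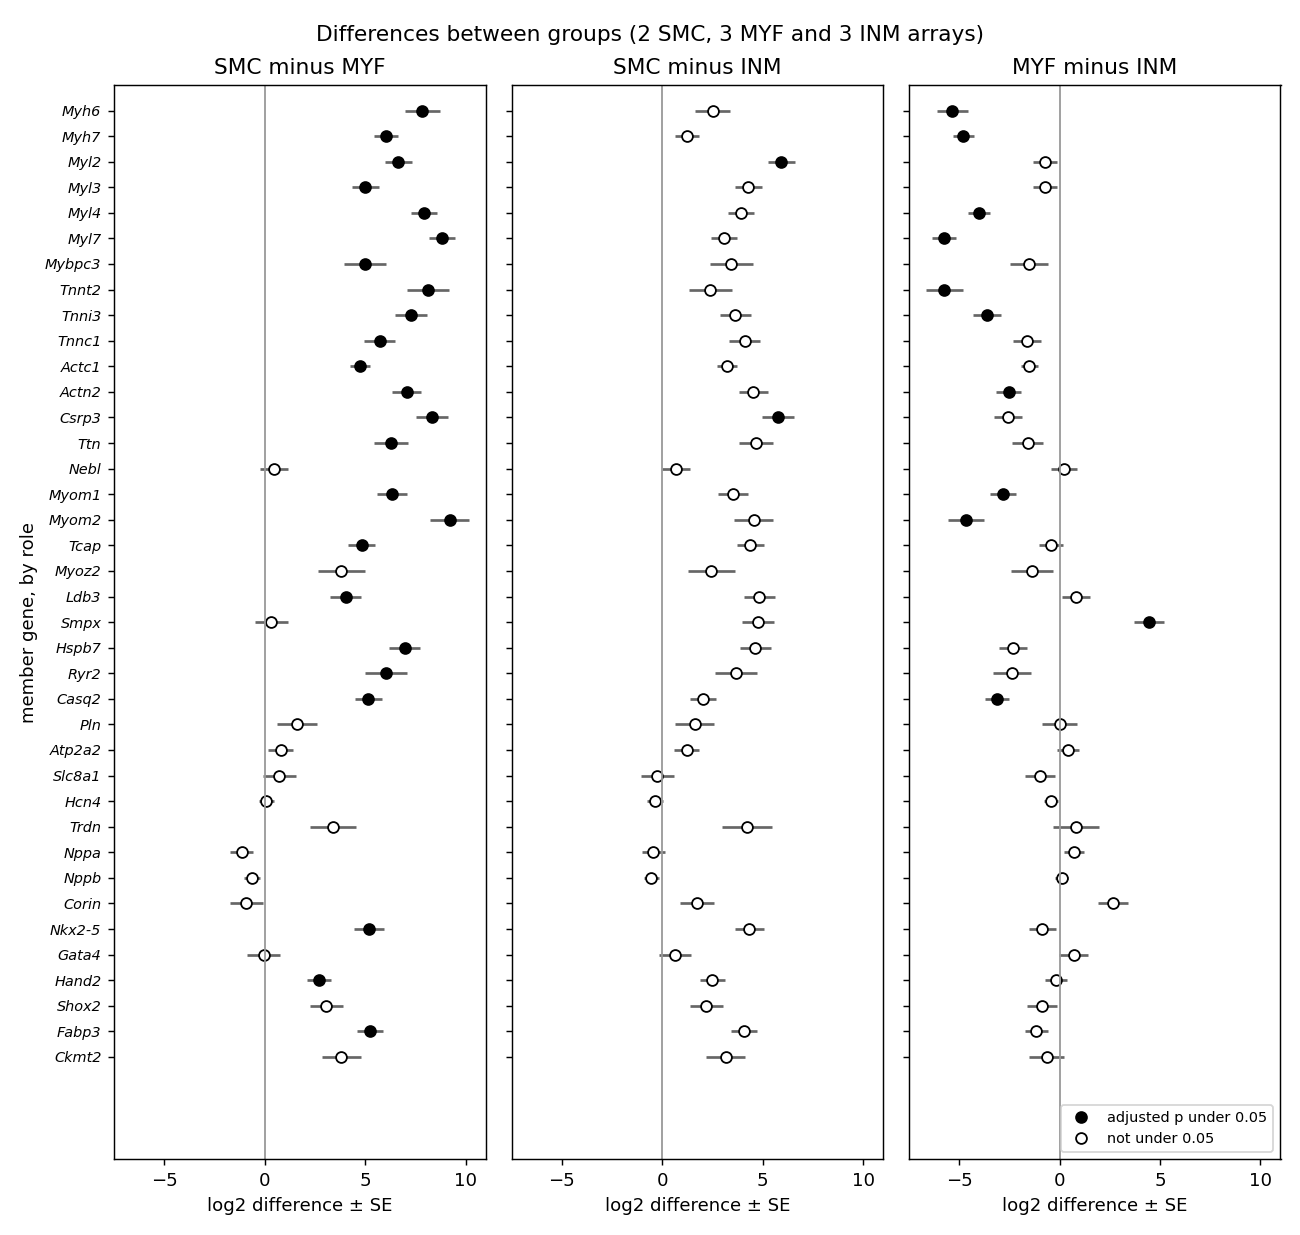
Log2 difference ± SE of each of the 38 genes (rows, by role) for SMC minus MYF, SMC minus INM and MYF minus INM, from 2 SMC, 3 MYF and 3 INM arrays (filled points passed an adjusted p under 0.05). SMC minus MYF lies right of 0 for 34 of 38 genes and is called for 24, SMC minus INM lies right of 0 for 34 and is called for 2, and MYF minus INM is called left of 0 for 10 and right of 0 for Smpx.

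SMC cells stood above INM cells for most of these genes, but few differences passed. In SMC, 2 of the 38 rose against INM and 0 fell, against 0.0907% of all genes called higher. At an unadjusted p under 0.05, 26 were higher and 0 lower by limma, against 5.93% and 6.73% of all genes. The median difference was 3.34 over the 38 genes and -0.03 over all genes, and both SMC arrays were above every INM array in 26 of 37, against 12.9% of all genes. Myl2 was higher in SMC by 5.93 ± 0.67, or 60.9-fold (adjusted p = 0.0253), and Csrp3 by 5.77 ± 0.78, or 54.5-fold (adjusted p = 0.0434). Probes called higher numbered 4 of 80, against 0.0957% of all probes. Close to the threshold were Actc1 (3.23 ± 0.48, adjusted p = 0.0504) and Tcap (4.40 ± 0.67, adjusted p = 0.0504).

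The other differences between SMC and INM did not pass. Myh7 differed between SMC and INM by 1.24 ± 0.58 (adjusted p = 0.431), Tnnt2 by 2.40 ± 1.05 (adjusted p = 0.398), Myh6 by 2.51 ± 0.88 (adjusted p = 0.308) and Myl7 by 3.07 ± 0.64 (adjusted p = 0.116). Nkx2-5 differed by 4.34 ± 0.73 (adjusted p = 0.0697), Myl3 by 4.30 ± 0.67 (adjusted p = 0.0577) and Smpx by 4.78 ± 0.81 (adjusted p = 0.0697). SMC replicate 1 moved these values: with all 9 arrays the difference was -0.97 for Myh7, -0.58 for Tnnt2, -0.90 for Myh6 and 0.17 for Myl7, so that the first 3 turned sign. It was 4.40 for Nkx2-5, 4.07 for Myl3 and 3.54 for Smpx. The number of calls depended on single arrays. With all 9 arrays 0 of the 38 genes were called by limma, against 0.0% of all genes called higher. At an unadjusted p under 0.05 there were then 14 higher and 0 lower, against 3.62% and 4.35% of all genes, and the median difference was 1.81. Without SMC replicate 2, 12 genes were called higher, against 2.16% of all genes, and without SMC replicate 3, 27, against 1.16%, each with 1 SMC array that is assumed to vary like the other groups. Without any 1 MYF or INM array, 0 or 1 were called.

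The means of 26 of the 38 genes ran SMC above INM above MYF, against 17.8% of all genes. The 3 comparisons share their arrays, so their values are not independent of each other. Another 6 genes ran SMC above MYF above INM: Nebl, Ldb3, Smpx, Pln, Atp2a2 and Trdn. The order INM, SMC, MYF was that of Slc8a1 and Hcn4. The natriuretic peptides, Nppa and Nppb, had the order MYF, INM, SMC, and Corin and Gata4 the order MYF, SMC, INM. SMC and INM overlapped for Myh7, and for Atp2a2, Gata4, Hcn4, Myoz2, Nebl, Pln, Slc8a1, Corin and Nppa, so the order of those 2 groups is not beyond their spread there. Of the 26 genes, Myl2, Myl3, Tcap, Nkx2-5, Hand2, Shox2 and Ckmt2 had overlapping MYF and INM arrays, so the order of that pair is not beyond its spread for them.

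A further list of heart muscle genes moved in part. Of 44 measured, 13 rose in SMC over MYF and 1 fell, against 4.66% and 3.54% of all genes, with a median difference of 1.94. The largest rises were those of Sln, the atrial regulator of the calcium pump, by 7.73 ± 0.83 (adjusted p = 0.00269), and Cox6a2, a striated muscle subunit of cytochrome oxidase, by 7.42 ± 0.88 (adjusted p = 0.00401). Tbx3, a T-box factor of the conduction system that lung mesenchyme also expresses, fell by 4.46 ± 0.71 (adjusted p = 0.0105). Against INM, 1 gene rose in SMC, the cytochrome oxidase gene Cox8b, by 5.52 ± 0.77 (adjusted p = 0.045). Over all genes 0.0907% were called higher there. At an unadjusted p under 0.05 by limma, 22 of the 44 were higher and 1 lower in SMC than in INM, against 5.93% and 6.73% of all genes. In MYF against INM, 2 fell, against 6.36% of all genes called lower and 4.35% called higher. These were Gja5, a connexin of atrial muscle and arterial endothelium, by 3.46 ± 0.57 (adjusted p = 0.00838) and Sln by 3.11 ± 0.74 (adjusted p = 0.0351). In the same comparison 3 rose, with the largest rises in Tbx5, a T-box factor of heart and lung, by 3.58 ± 0.79 (adjusted p = 0.0277), and Myocd, a co-factor of serum response factor, by 3.05 ± 0.64 (adjusted p = 0.0225). At an unadjusted p under 0.05 by limma, 7 of the 44 were lower and 6 higher in MYF than in INM. Over all genes these shares were 12.3% and 12.5%, so the list was near all genes in that comparison. With all 9 arrays, 1 of the 44 was called higher in SMC than in MYF, against 0.379% of all genes. In the other comparisons 0 were called by limma. At an unadjusted p under 0.05, 12 were then higher and 1 lower in SMC against INM, against 3.62% and 4.35% of all genes. In MYF against INM, 1 was higher and 1 lower at that p, against 3.34% and 6.31% of all genes.

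Of 25 skeletal muscle genes, 7 rose in SMC over MYF and 1 fell, against 4.66% and 3.54% of all genes. The median difference was 0.63. Myl1, a light chain of fast skeletal muscle and embryonic heart, rose by 6.17 ± 0.83 (adjusted p = 0.00569), and Tnni2, fast skeletal troponin, by 5.85 ± 0.85 (adjusted p = 0.00752). The 1 that fell was Myod1, the master regulator of skeletal muscle, which read 9.71 and 9.85 in SMC replicates 2 and 3 (14.05 in replicate 1), 11.02, 10.87 and 10.87 in MYF and 9.76, 9.79 and 10.04 in INM. SMC replicate 1 was above every other array for Myod1, against the direction of that call. Over all 9 arrays 0 skeletal muscle genes were called by limma. At an unadjusted p under 0.05, 6 were higher and 2 lower in SMC than in MYF, against 7.24% and 7.7% of all genes. The mean over the 25 genes was 6.78 and 6.03 in SMC replicates 2 and 3 (5.45 in replicate 1), 4.93 to 5.19 in MYF and 5.22 to 5.66 in INM.

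Markers of cells other than muscle also differed between the sorted groups. Of epithelial markers, 13 of 15 rose in SMC over MYF, of endothelial markers 12 of 14 (and 1 fell), and of leukocyte markers 10 of 14. Over all genes, 4.66% were called higher and 3.54% lower. With SMC replicate 1 kept, 3 epithelial, 2 endothelial and 2 leukocyte markers rose, against 0.379% of all genes. In MYF against INM, 14 epithelial, 12 endothelial and 8 leukocyte markers fell and 1 leukocyte marker rose. Over all genes, 6.36% fell and 4.35% rose. With all 9 arrays 5 epithelial, 4 endothelial and 1 leukocyte markers fell, against 0.927% of all genes. No leukocyte marker was then called higher, against 0.173% of all genes. At an unadjusted p under 0.05 by limma 1 was higher, against 3.34%. The differences of MYF from INM were the same in both fits, and only the estimate of spread changed. Mean signals of epithelial markers were 9.11 and 10.95 in SMC replicates 2 and 3 (8.95 in replicate 1), 6.09 to 6.51 in MYF and 11.02 to 11.42 in INM. Endothelial markers averaged 8.46 and 8.78 in SMC replicates 2 and 3 (5.28 in replicate 1), 5.26 to 5.93 in MYF and 9.29 to 9.33 in INM. Both were highest in INM, while the mean of the 38 heart genes was highest in SMC. Leukocyte markers averaged 8.11 and 9.94 in SMC replicates 2 and 3 (7.47 in replicate 1), 5.57 to 5.93 in MYF and 7.99 to 8.46 in INM, and SMC replicate 3 was highest. In SMC against INM, 1 of 14 leukocyte markers rose, the complement gene C1qc of macrophages, by 7.45 ± 0.74 (adjusted p = 0.0159). It read 9.55 and 11.97 in SMC replicates 2 and 3 (7.10 in replicate 1), 2.23, 2.39 and 2.76 in MYF and 2.81, 2.78 and 4.33 in INM, and all 3 SMC arrays were above every other array. C1qa, C1qb and Mrc1, other macrophage genes, differed from INM by 2.02, 2.16 and 2.42 in the same comparison and were not called. In the fit that kept SMC replicate 1, 0 leukocyte markers were called there by limma. At an unadjusted p under 0.05, 4 were then higher, against 3.62% of all genes. Of epithelial and endothelial markers 0 were called in SMC against INM by limma without replicate 1. There 3 and 1 were lower at an unadjusted p under 0.05, against 6.73% of all genes.

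Within the SMC arrays the lists also ran in different directions. Replicate 2 was above replicate 3 for 3 of 15 epithelial, 4 of 14 endothelial and 2 of 14 leukocyte markers, and for all 38 heart genes. It was also above replicate 3 for 14 of 16 smooth muscle markers. Of smooth muscle markers, 3 of 16 rose in SMC over MYF, against 4.66% of all genes, with a median difference of 1.07. Their mean was 12.54 and 11.32 in SMC replicates 2 and 3 (8.69 in replicate 1). It was 10.48 to 10.84 in MYF and 9.94 to 10.85 in INM. The mean in SMC replicate 1 was the lowest of the 9 arrays. When SMC replicate 1 was kept, 0 of 16 were called by limma, and the median difference was 0.60. At an unadjusted p under 0.05, 3 were then higher and 1 lower, against 7.24% and 7.7% of all genes. Without replicate 1, Cnn1 rose by 4.95 ± 0.86 (adjusted p = 0.0142) and Des, which striated muscle shares, by 4.12 ± 0.98 (adjusted p = 0.0411), and replicate 1 itself read 9.63 for Cnn1 and 2.90 for Des. In SMC against INM, 0 of 16 smooth muscle markers were called by limma without replicate 1, and their median difference was 1.56. At an unadjusted p under 0.05, 11 were higher and 0 lower there, against 5.93% and 6.73% of all genes. With all 9 arrays 4 were higher at that p, against 3.62%. Without replicate 1, 0 of 9 markers of epicardium and heart valve were called in SMC against MYF by limma. At an unadjusted p under 0.05, 2 were lower, against 13.6% of all genes. Of 9 erythroid markers, 0 were called and 2 were lower at that p. Of 7 mesothelial markers 2 rose, against 4.66% of all genes. With all 9 arrays 0 mesothelial markers were called by limma, and 3 were higher at an unadjusted p under 0.05, against 7.24% of all genes. The part that other cell types have in the heart gene signal was not tested.

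**Figure D4:**
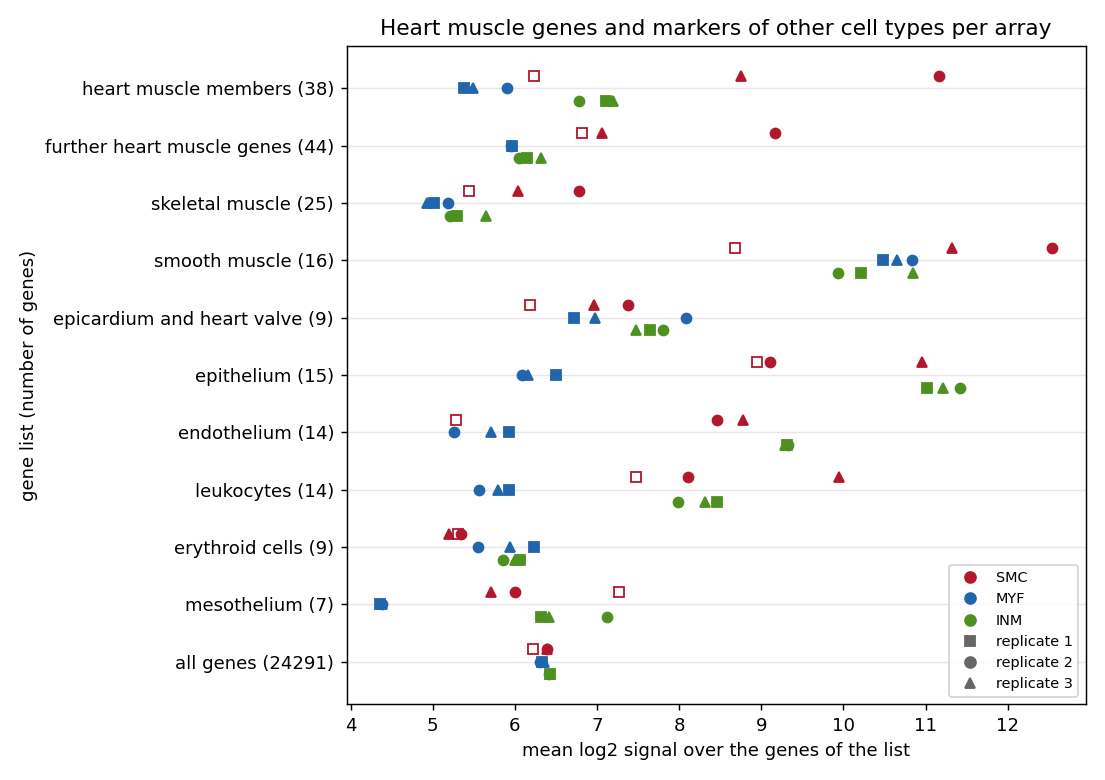
Mean log2 signal (horizontal axis) over the genes of each list (rows, number of genes in brackets) on each array, with SMC above MYF above INM in a row and replicates by symbol (the open square is SMC replicate 1). The heart muscle genes average 11.16 and 8.75 in SMC replicates 2 and 3 and are lowest in MYF, while epithelial and endothelial markers are highest in INM.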

How the data were processed

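RNA of sorted fetal mouse lung cells was amplified, labelled with Cy3 and hybridised on 9 one-colour Agilent arrays, per the labels' protocols. The authors deposited log2 signals per feature, made with limma per the submitters' processing notes (version not given there). Every column has the same minimum (1.65), mean (5.89) and SD (3.00), and the highest value is 16.00. They were therefore read as quantile-normalized, and very bright signals may be compressed. Of 62976 features, 733 had an empty cell, which stayed empty. Precision is limited by the number of arrays. No background measure was used, so low signals carry no detection call.

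Features took symbols from the platform annotation, updated through RefSeq: 43941 had 1 symbol, 19035 none. Each of 24291 genes was represented by its probe with the highest mean over 9 arrays. The comparisons used limma 3.58.1 (lmFit, then eBayes) under R 4.3.3, with 1 mean per group over 8 arrays, two-sided tests and Benjamini-Hochberg adjustment over all genes. SMC replicate 1 was left out for its low correlation with the other arrays over all features. The tests of the 38 genes and of the lists were repeated with it. The probe-by-probe fits and the counts of groups that did not overlap were not. The fit was run on simulated data with independent noise and known shifts. That simulation held no array that stood apart and no shared gap between SMC arrays, so it cannot speak to either. The members, the other lists, the tests and the exclusion were chosen with earlier results of these data known. All 38 genes are named; array values are given for the 10 largest called differences between SMC and MYF, for genes called against INM in SMC or against the common direction, and for regulator and chamber genes. The rule for other genes takes, per list and comparison, the 2 most positive and 2 most negative called, or the 2 with the largest difference where none is called, and the text gives a part of these. C1qa, C1qb and Mrc1 were named after their values were seen. Replicate numbers were not used as pairs. The alternatives were all 9 arrays, a replicate block, a further quantile normalization, array centring, a level filter, other probe choices, a variance trend, array weights, the compared groups alone, every probe as a unit, and each array left out in turn. Sequences and motif matches come from RefSeq promoters; 5 of the 38 genes (Tcap, Trdn, Myom2, Gata4 and Atp2a2) were not matched.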

Additional observations from a re-analysis of the deposited data

How the results depend on the processing

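With SMC replicate 1 kept (all 9 arrays), the members called higher numbered 6 in SMC vs MYF, 0 in SMC vs INM and 0 in MYF vs INM (0 lower), and the median differences were 3.53 in SMC vs MYF and 1.81 in SMC vs INM. The number called higher in SMC over INM was 0 with array weights, 0 with the compared groups alone, 7 with the mean of all probes, 4 with the probe of largest interquartile range and 13 with a variance trend. In MYF vs INM, 17 were lower with the compared groups alone, and 2 were higher with array weights, the compared groups alone, the level filter, the mean of all probes, the largest interquartile range or the variance trend. The level filter left 25 of the 38 genes and a median of 5.72 in SMC vs MYF, with 18 called higher. In SMC vs MYF the members called higher numbered 20 with the compared groups alone, 23 with array weights and 26 with a variance trend. They numbered 28 with the mean of all probes and 28 with the probe of largest interquartile range. Further normalization, centring and probes as units kept every count of members called at its value. Normalization and centring could hardly change a count, since the array medians as deposited already lay within 0.000166 of each other. Probes as units read the same brightest probe of each gene. The order SMC above INM above MYF held for 22 genes with all 9 arrays, 31 with the mean of all probes and 30 with the probe of largest interquartile range.

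Leaving out 1 array at a time, the members called higher numbered 20 to 30 in SMC vs MYF (0 to 1 lower), 0 to 27 in SMC vs INM and 1 to 2 in MYF vs INM (5 to 17 lower). Over all genes the calls then numbered 525 to 2302 higher and 292 to 1739 lower in SMC vs MYF, 2 to 523 and 3 to 460 in SMC vs INM, and 289 to 1584 and 850 to 2050 in MYF vs INM. The medians ranged over 3.92 to 6.18, 2.06 to 4.89 and -1.35 to -0.88. The difference changed sign without 1 array or another, with these lowest and highest values, for Atp2a2 (-0.41 to 1.98), Corin (-2.43 to 0.61), Gata4 (-1.63 to 1.53), Hcn4 (-0.22 to 0.39), Nebl (-0.77 to 1.69), Pln (-0.20 to 3.40), Slc8a1 (-0.65 to 2.09) and Smpx (-1.07 to 1.73) in SMC vs MYF, and Gata4 (-0.94 to 2.23), Nebl (-0.55 to 1.91), Nppa (-1.24 to 0.36), Pln (-0.18 to 3.42) and Slc8a1 (-1.62 to 1.12) in SMC vs INM, and Hand2 (-0.60 to 0.22), Nppb (-0.14 to 0.32) and Pln (-0.38 to 0.54) in MYF vs INM.

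With all 9 arrays, the sign turned for Atp2a2 (-0.51), Casq2 (-0.083), Myh6 (-0.90), Myh7 (-0.97), Nebl (-0.34), Nppb (0.54) and Tnnt2 (-0.58) in SMC vs INM, and Atp2a2 (-0.93), Gata4 (0.97), Hcn4 (-0.69), Nebl (-0.56), Nppb (0.44) and Smpx (-0.91) in SMC vs MYF. With the mean of all probes, the sign turned for Atp2a2 (-0.30), Gata4 (-0.24), Ldb3 (-1.03), Nppa (-0.18), Nppb (-0.096) and Trdn (-0.087) in MYF vs INM, and Gata4 (1.98) in SMC vs MYF, and Slc8a1 (1.51) in SMC vs INM. With the probe of largest interquartile range, the sign turned for Atp2a2 (-0.74), Gata4 (-1.18), Ldb3 (-2.87), Nppb (-0.29) and Trdn (-0.82) in MYF vs INM, and Gata4 (4.01) in SMC vs MYF. With array weights, the sign turned for Gata4 (0.082) in SMC vs MYF. With the replicate block, the sign turned for Hcn4 (-0.029) in SMC vs MYF. None of these differences was called as reported, or under a setting that turned its sign. The cause was not tested.

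Same-numbered arrays of different groups had correlations of -0.0515 to 0.0215 between their deviations from the group means, and the numbers were not used as pairs. With the number as a replicate block, 22 members were called higher in SMC vs MYF, 0 in SMC vs INM and 9 lower in MYF vs INM.

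Over all genes, the calls were 1131 higher and 860 lower in SMC vs MYF, 22 higher and 38 lower in SMC vs INM and 1056 higher and 1542 lower in MYF vs INM. Over all 9 arrays they were 92 higher and 71 lower in SMC vs MYF, 0 higher and 0 lower in SMC vs INM and 42 higher and 225 lower in MYF vs INM. With the replicate block they were 498 higher and 271 lower in SMC vs MYF, 0 higher and 0 lower in SMC vs INM and 476 higher and 1102 lower in MYF vs INM. With array weights they were 492 higher and 281 lower in SMC vs MYF, 1 higher and 2 lower in SMC vs INM and 2150 higher and 2363 lower in MYF vs INM. With the compared groups alone they were 382 higher and 244 lower in SMC vs MYF, 0 higher and 0 lower in SMC vs INM and 1584 higher and 2050 lower in MYF vs INM. With a variance trend they were 1493 higher and 1486 lower in SMC vs MYF, 57 higher and 60 lower in SMC vs INM and 1504 higher and 1811 lower in MYF vs INM, and with the level filter 1190 higher and 1387 lower in SMC vs MYF, 13 higher and 37 lower in SMC vs INM and 1456 higher and 1389 lower in MYF vs INM. With the mean of all probes they were 1140 higher and 878 lower in SMC vs MYF, 31 higher and 42 lower in SMC vs INM and 910 higher and 1543 lower in MYF vs INM, and with the probe of largest interquartile range 1246 higher and 920 lower in SMC vs MYF, 33 higher and 30 lower in SMC vs INM and 989 higher and 1670 lower in MYF vs INM. How far background limits the low signals is not known, since no background values were used.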

Other observations

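SMC replicate 1, the array that stands apart, was above every MYF and INM array for 14 of the 38 genes, against 40.6% of all genes. It was below every MYF and INM array for 11 of the 38, against 35.8% of all genes. Both counts are near those shares and say nothing particular to heart muscle genes. Probes of 1 gene differed on that array: the brightest probe of Gata4 read 9.45 and its other probe 3.17, the highest and the lowest of the 9 arrays. For Nppb the brightest probe read 7.69, the highest of the 9 arrays, and the other probe 2.30. These are values of 1 array, with no test.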
